A study of Saccharomyces cerevisiae with 90 samples.

Results

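A set of small stress-protein genes of budding yeast, 8 of 5562 genes measured in 10 h colonies and 8 of 5560 genes measured in SC medium, were followed across every group of both array tables. They are HSP12, GRE1, SIP18, DDR2, DDR48, STF2, HSP31 and SPI1, taken as the probe sets annotated to those symbols, and all 8 were found in both tables. The genes were selected on their measured differences between groups in these same tables, so every difference, count of calls and adjusted p-value of a member below describes the members and is not independent evidence. No low-value filter was applied, so no member was lost to one.

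Hydrophilins are very hydrophilic, glycine-rich proteins that accumulate when yeast cells lose water or stop growing, and are known for protecting enzymes and membranes during drying. Many stress genes of yeast carry stress response elements bound by the activators Msn2 and Msn4. Protein kinase A, which is switched on by cAMP made under the control of Ras, keeps these activators out of the nucleus, so high cAMP is known to hold such genes down. The same kinase also promotes filamentous growth, in which cells elongate and stay attached.

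The study measured RNA on Affymetrix arrays. The colony table holds 70 arrays in 21 groups of strain background G85, grown for 10 h: the wild type in the yeast form on synthetic complete dextrose medium (6 arrays), and, on low-ammonium dextrose medium with uracil and histidine, the wild type in the filamentous form (3 arrays), 6 single deletion strains (3 to 5 arrays each) and 13 double deletion strains (3 arrays each). The deletions tec1, cup9, sfl1, sok2 and skn7 were made with bcKanMX4 and yap6 with NatMX4, in 1 strain per genotype as labelled. TEC1, CUP9, SFL1, SOK2, SKN7 and YAP6 encode transcription regulators. Yeast and filamentous form differ in medium as well as in growth form, and these cannot be told apart.

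The SC medium table holds 20 arrays of MATa/alpha ura3-52/ura3-52 diploids in 10 groups. The wild type SR1187 with plasmid pRS316 has 4 arrays. The ira1 (SR595, ira1::HIS3/ira1::LEU2) and ira2 (SR563, ira2::HIS3/ira2::LEU2) strains lack a Ras GTPase-activating protein and have 2 arrays each, both also with leu2::hisG, his3::hisG and pRS316. The ira1RA strain (SR954, 2 arrays) is the ira1 strain with pRS316-IRA1RA, a plasmid copy whose active arginine is an alanine. Dominant-active ras2v19 (SR453, pRS316-RAS2V19) and dominant-negative ras2a22 (SR753, pRS316-RAS2A22) have 2 arrays each and carry the normal RAS2 as well, as far as the genotype is written. In the cAMP series the cells were ras1::HIS3, ras2 delta and pde2::kanR on both copies, with leu2::hisG, his3::hisG and TRP1+/trp1::hisG, so that cAMP had to come from outside. It has 2 arrays at 0 mM (SR959, with pRS315), 1 at 0.5 mM, 1 at 1 mM and 2 at 2 mM cAMP (all SR957, no plasmid listed). The added dose and the strain therefore differ together between 0 mM and the other doses.

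Several libraries read against their labels or apart from their group. TEC1 was at 8.68 in 1 of the 5 tec1 libraries, above its 8.06 to 8.56 in the filamentous wild type, and CUP9 was at 8.21 in 1 of the 5 cup9 libraries. CUP9 also read 8.04 to 8.38 in all 3 libraries labelled cup9-yap6, against 7.72 to 7.84 in the filamentous wild type, while YAP6 was low there (2.49 to 2.92, against 3.86 to 4.34). In the remaining deletion libraries the deleted gene lay below every array of the filamentous wild type. Without the odd tec1 and cup9 libraries, no member gained or lost a call in any comparison that used those strains. In SC medium RAS2 and PDE2 were at 1 to 3 in the cAMP series, but RAS1 read 136 to 364 there and 23 to 41 in the wild type. Whether its probe set lies outside the part replaced by HIS3 was not tested. SC wild-type arrays 3 and 4 correlated at 0.914 across genes, and every other pair of wild-type arrays at 0.748 to 0.765. Array medians were 6.27 to 6.68 (log2) in the colony table and 28 to 30 (intensity) in SC medium, and 15 of the 160 member values in SC medium lay at 1, the lowest value deposited. Nothing says that replicates came from separate cultures, so p-values measure the spread between arrays, part of which may be technical.

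Over the 21 colony groups the members fell into wide and narrow ranges. Group means of DDR48, a protein first found as DNA-damage responsive, spanned 4.60 on the log2 scale, from 5.94 in tec1 to 10.54 in sfl1-yap6. HSP12, a small heat shock protein that stabilises membranes, spanned 4.47, from 5.29 in cup9-yap6 to 9.76 in sfl1-sok2. Means of STF2, which was named as a stabiliser of the ATP synthase inhibitor complex, spanned 3.71, those of SPI1, a GPI-anchored cell wall protein, 3.65, and those of DDR2, a multistress-response protein, 2.86. By contrast, HSP31, a methylglyoxalase and chaperone, spanned 1.42, GRE1, a hydrophilin induced by drying and salt, 1.27, and its paralog SIP18 only 0.49. Of all 5562 genes, 0.342 percent had a wider range than DDR48 and 0.449 percent a wider range than HSP12, whereas 92.6 percent had a wider range than SIP18. SIP18 lay between 3.32 and 4.20 on every colony array, under the array medians of 6.27 to 6.68. GRE1, at 3.63 to 5.64, was also under these medians on every colony array. Whether the narrow range of either gene reflects a steady level or a signal too low to detect was not tested.

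**Figure D1:**
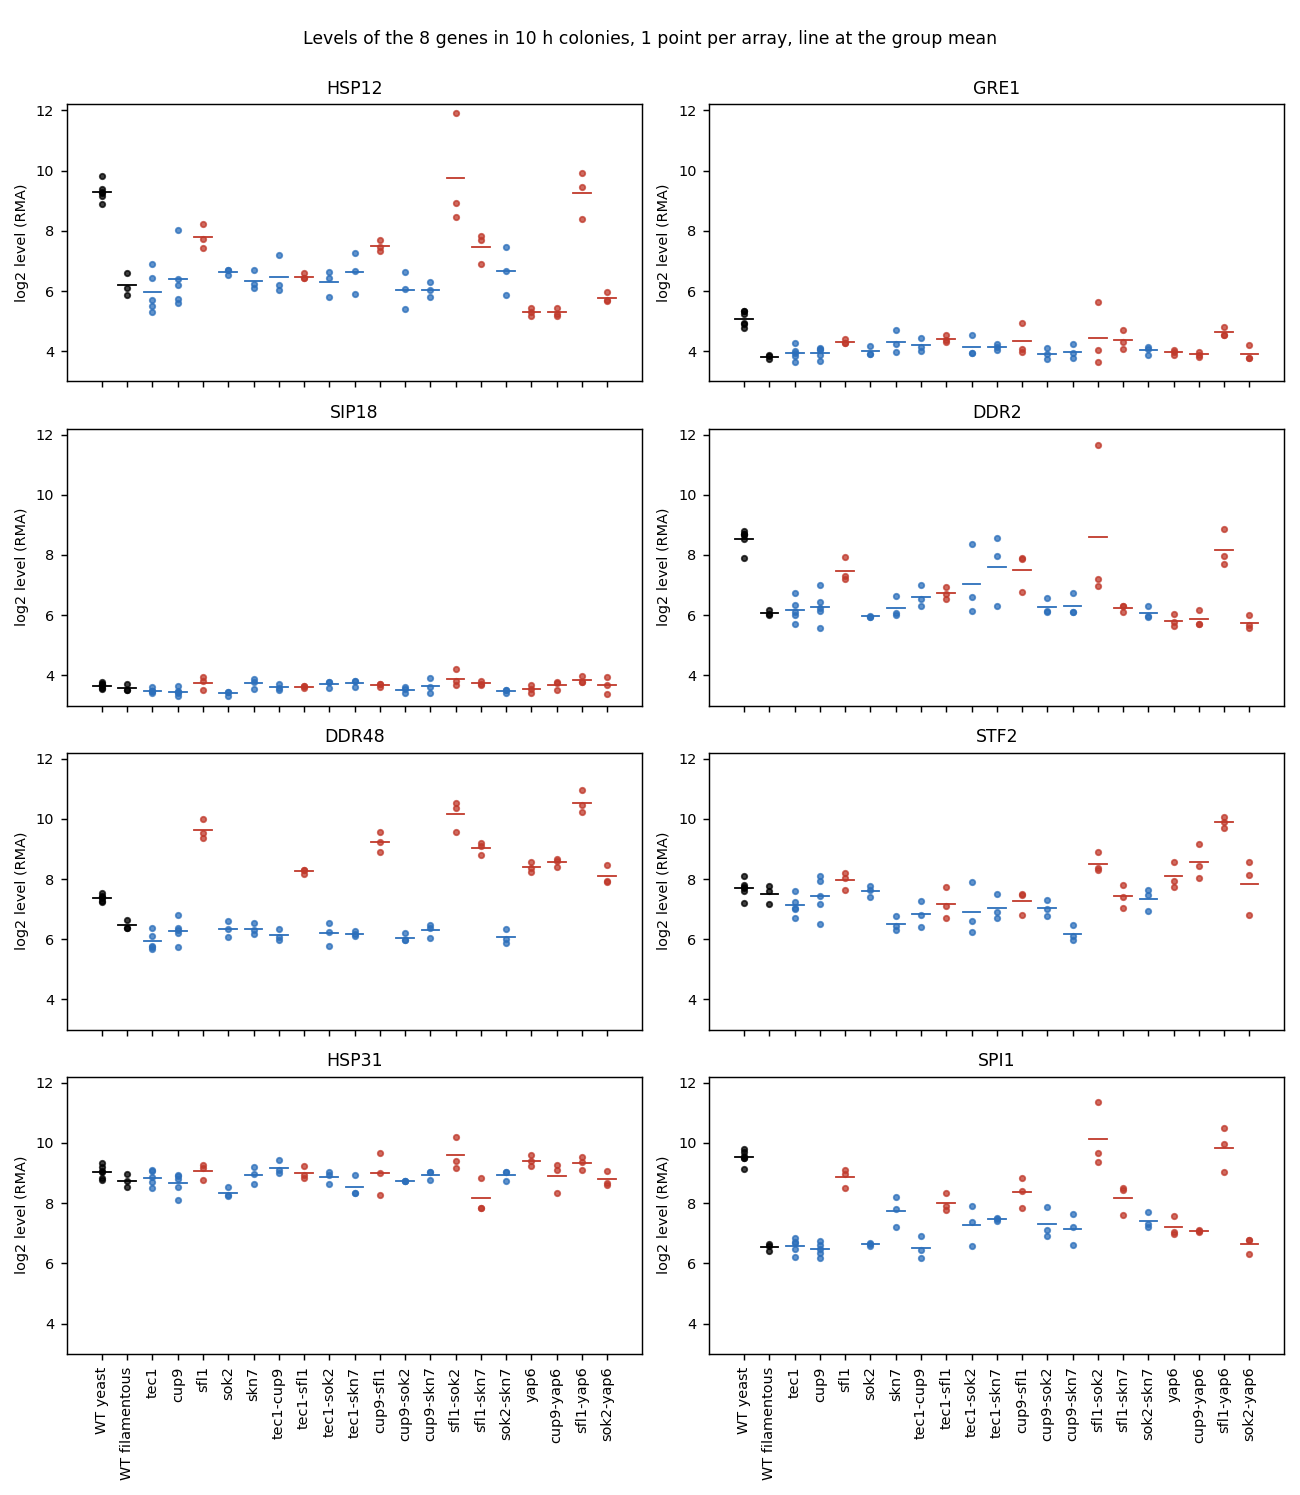
Log2 levels (RMA, vertical axis) of the 8 genes in the 21 groups of 10 h colonies, with 1 point per array and a line at the group mean; groups that lack SFL1 or YAP6 are red, other deletion strains blue and the wild type black. DDR48 is above the filamentous wild type in every red group, and SIP18 stays between 3.32 and 4.20.

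Between the forms of the wild type, the filamentous form had lower levels of 5 of the 8 genes. A gene is called here where limma's Benjamini-Hochberg adjusted p, over all genes of a comparison, is under 0.05. In this comparison 23.2 percent of all genes were called lower, beside which the 5 members are given as a description. HSP12 read 8.88, 9.28, 9.39, 9.25, 9.81 and 9.16 in the yeast form and 6.09, 5.88 and 6.60 in the filamentous form. The groups did not overlap, and the level fell by 3.11 on the log2 scale in the filamentous form, an 8.61-fold difference (SE 0.43, adjusted p = 6.8e-08).

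SPI1 showed a drop of like size, from 9.14, 9.80, 9.49, 9.71, 9.57 and 9.51 to 6.58, 6.65 and 6.42, or 7.93-fold (log2 change -2.99, SE 0.29, adjusted p = 1.85e-12). DDR2 read 7.90, 8.68, 8.65, 8.52, 8.68 and 8.81 in the yeast form and 6.05, 6.18 and 5.99 in the filamentous form. Its log2 change was -2.47 (SE 0.48, adjusted p = 4.66e-05), again with no overlap. GRE1 and DDR48 fell by less, by 1.27 (SE 0.21, adjusted p = 4.56e-06) and 0.91 (SE 0.19, adjusted p = 9.86e-05) on the log2 scale. Neither group of arrays overlapped for these genes either. GRE1 read 4.76 to 5.35 in the yeast form and 3.75 to 3.87 in the filamentous form, under the array medians of 6.27 to 6.68. Whether a low signal narrowed its difference was not tested. The calls of all 5 genes were kept with each of the 9 arrays left out, and also in a fit blocked on replicate number. SIP18, STF2 and HSP31 were not called: STF2 read 7.69 ± 0.29 (SD, n = 6) in the yeast form and 7.51 ± 0.31 (SD, n = 3) in the filamentous form, and HSP31 9.04 ± 0.21 and 8.75 ± 0.22.

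The single deletions split the members further. Of 48 member tests in the 6 single deletion strains against the filamentous wild type, 7 were called, 6 higher and 1 lower. Over all genes 14.5 percent of the tests in these 6 strains were called, so the members were not called more often than genes at large. The sfl1 strain accounted for 3 of them, where 10.3 percent of all genes were called higher. DDR48 read 9.52, 10.01 and 9.35 in sfl1 and 6.37, 6.39 and 6.63 in the wild type. This 8.97-fold difference (log2 change 3.17, SE 0.22, adjusted p = 3.37e-17) left the groups far apart. SPI1 was higher by 2.31 on the log2 scale (SE 0.33, adjusted p = 8.1e-07), at 8.98, 8.50 and 9.11. HSP12 was higher by 1.60 (SE 0.50, adjusted p = 0.0153), at 8.23, 7.73 and 7.42. The call of HSP12 was lost without sfl1 array 1 (adjusted p = 0.0656) or without filamentous wild-type array 2 (adjusted p = 0.0621). DDR2 read 7.20, 7.29 and 7.94 in sfl1, with a log2 difference of 1.40 and an adjusted p of 0.0547.

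In the yap6 strain 2 members were called higher, where 12.6 percent of all genes were. DDR48 read 8.58, 8.25 and 8.36, above the wild type by 1.94 on the log2 scale (SE 0.22, adjusted p = 1.67e-09). HSP31 was higher by 0.66 (SE 0.25) at an adjusted p of 0.0496. That call was lost without filamentous wild-type array 1 (0.171) or 3 (0.105), and without yap6 array 1 (0.110), 2 (0.158) or 3 (0.0557). It was also lost after quantile normalization (0.0818) and with limma's trend and robust options (0.0508). HSP12 was not called in yap6 (log2 difference -0.88, adjusted p = 0.195), although its levels of 5.18, 5.30 and 5.45 lay below each of the wild-type arrays.

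Loss of SKN7, a regulator of osmotic and oxidative responses, went with 2 member calls of opposite direction, beside 37.1 percent of all genes called in either direction, so the members were not called more often than genes at large. SPI1 was higher by 1.18 on the log2 scale (SE 0.33, adjusted p = 0.00563), at 8.19, 7.21 and 7.79. Without skn7 array 1 its adjusted p was 0.0718. STF2 fell by 1.01 (SE 0.35, adjusted p = 0.0219), at 6.31, 6.78 and 6.43 against 7.77, 7.60 and 7.17. Its call was lost without skn7 array 1 (0.108) or 3 (0.0566) and without wild-type array 1 (0.0879) or 2 (0.0571). The tec1, cup9 and sok2 strains had no member called, where 0.126, 0.342 and 1.17 percent of all genes were. In tec1 DDR48 differed by -0.53 on the log2 scale (adjusted p = 0.302). One of the 5 cup9 arrays had HSP12 at 8.03, and the other arrays had it at 5.62 to 6.41.

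**Figure D2:**
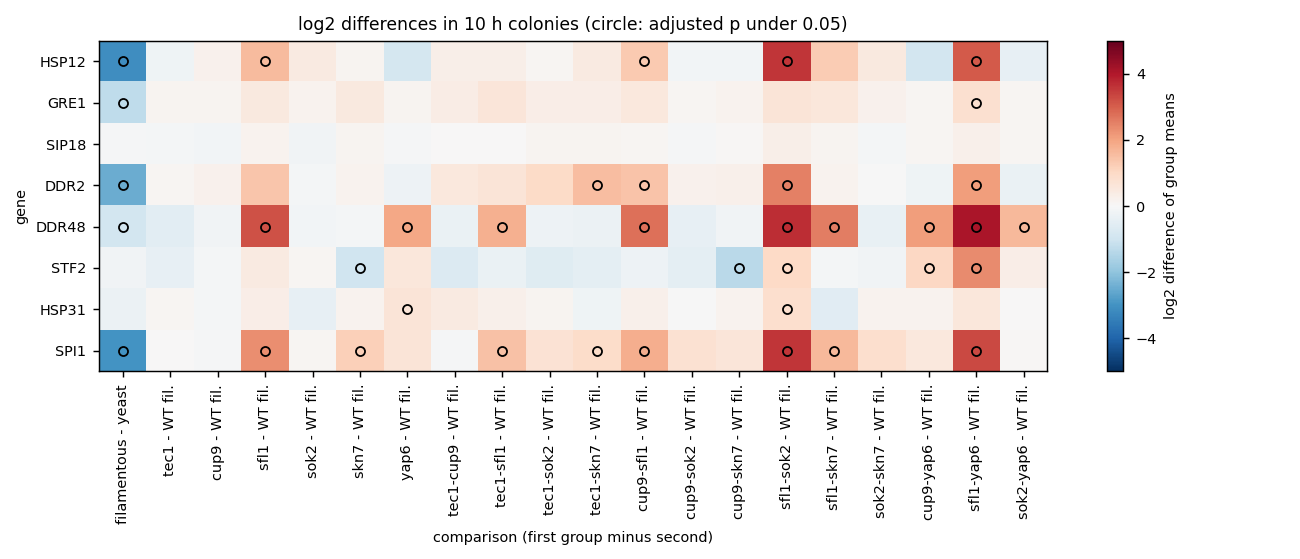
Differences of group means on the log2 scale (colour) for the 8 genes (rows) in 20 comparisons of 10 h colonies (columns), each coded as first group minus second; a circle marks an adjusted p under 0.05. The row of DDR48 has circles at the 9 strains that lack SFL1 or YAP6 and at the comparison of the forms.

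In the double deletion strains 26 of 104 member tests were called, 25 of them higher, beside 19.6 percent of the tests over all genes in these 13 strains. The libraries labelled cup9-yap6, where CUP9 read above the wild type, supply 8 of these tests and 2 of the calls. DDR48 was called higher in all 9 deletion strains that lack SFL1 or YAP6, single and double, by 1.64 to 4.07 on the log2 scale. The 9 include the cup9-yap6 libraries, where only the loss of YAP6 is seen. In the 10 strains that keep both genes it was never called, and its changes ran from -0.53 to -0.11. SPI1 was called higher in all 6 strains that lack SFL1, by 1.45 to 3.57, and in 2 of the 13 others, skn7 and tec1-skn7. HSP12 was called in 4 of the 6 strains without SFL1 (0.28 to 3.57) and in none of the 13 others (-0.90 to 0.48). In the 9 strains without SFL1 or YAP6, taken singly, 8.11 to 23.9 percent of all genes were called higher. The share of all genes called throughout such a set of strains was not computed. All 19 deletion strains were set against the same 3 filamentous wild-type arrays, so their calls are not independent of each other.

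The sfl1-yap6 strain had 6 of 8 members called higher, beside 23.9 percent of all genes. DDR48 reached 10.21, 10.45 and 10.95, or 16.8-fold over the wild type (log2 change 4.07, SE 0.22, adjusted p = 6.34e-22). SPI1 at 9.02, 10.50 and 9.97 was 9.73-fold higher (adjusted p = 6.45e-12), and HSP12 at 9.91, 8.41 and 9.46 was 8.39-fold higher (adjusted p = 8.35e-07). All arrays of these 3 genes lay above the wild type. STF2 read 9.91, 9.71 and 10.06, above every array of the other 20 groups, with a log2 change of 2.38 (SE 0.35, adjusted p = 1.34e-07). DDR2 was higher by 2.11 (SE 0.55, adjusted p = 0.0013) and GRE1 by 0.82 (SE 0.25, adjusted p = 0.00517), the one call of GRE1 in any deletion strain. SIP18 and HSP31 were not called, with log2 changes of 0.25 (adjusted p = 0.094) and 0.58 (adjusted p = 0.0531).

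In sfl1-sok2 6 members were also called higher, where 9.35 percent of all genes were, but the size of their changes leaned on 1 array. HSP12 read 11.90, 8.91 and 8.46, DDR2 11.64, 7.20 and 6.97, and SPI1 11.35, 9.36 and 9.65. Array 1 was the high one for each of them, and also for GRE1 (5.64, 3.65 and 4.06). DDR48 ran the other way, at 9.57, 10.37 and 10.51, with array 1 the lowest. Without array 1 the log2 change of HSP12 went from 3.57 to 2.50 (adjusted p = 6.45e-05), that of SPI1 from 3.57 to 2.96 (3.4e-10) and that of DDR48 from 3.69 to 3.98 (1.1e-20). The calls of DDR2 (2.53 to 1.01, adjusted p = 0.129), STF2 (1.00 to 0.81, 0.209) and HSP31 (0.84 to 0.55, 0.219) were lost without it. STF2 was also lost without wild-type array 2 (0.0615) or 3 (0.161), and HSP31 without wild-type array 1 (0.0707). With all arrays kept, DDR2 (0.138) and HSP31 (0.0538) were also lost in the fit of only the groups compared.

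The other double deletion strains had fewer calls. Beside the genes called higher at large (10 percent in tec1-sfl1, 14.6 in cup9-sfl1, 8.11 in sfl1-skn7, 9.78 in sok2-yap6), DDR48 rose in each of these 4 strains and SPI1 in the first 3. In sok2-yap6 SPI1 read 6.63 ± 0.27 (SD, n = 3), near the wild type. HSP12 (1.30, adjusted p = 0.0357) and DDR2 (1.44, adjusted p = 0.0358) were called in cup9-sfl1 as well. The call of HSP12 there was lost without cup9-sfl1 array 2 (0.104) or 3 (0.0908) or wild-type array 1 (0.0876) or 2 (0.108). That of DDR2 was lost without cup9-sfl1 array 2 (0.126) or 3 (0.143) or wild-type array 1 (0.0786), 2 (0.0596) or 3 (0.0852).

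The libraries labelled cup9-yap6 had DDR48 higher by 2.09 and STF2 higher by 1.04 (adjusted p = 0.0264), where 13.5 percent of all genes were higher. STF2 was lost there without cup9-yap6 array 1 (0.214) or wild-type array 2 (0.0514) or 3 (0.132). In tec1-skn7, with 17.3 percent of all genes higher, DDR2 (1.53, adjusted p = 0.0297) and SPI1 (0.91, adjusted p = 0.0303) were called. DDR2 was lost there without tec1-skn7 array 2 (0.191) or 3 (0.0984) or any 1 wild-type array (0.0527 to 0.079). SPI1 was lost without any 1 tec1-skn7 array (0.0556 to 0.0748) or without wild-type array 1 (0.0634) or 3 (0.0942). STF2 fell by 1.33 on the log2 scale in cup9-skn7 (SE 0.35, adjusted p = 0.0123), beside 9.56 percent of all genes. Its adjusted p was 0.0821 without cup9-skn7 array 1 and 0.0574 without wild-type array 1. No member was called in tec1-cup9, tec1-sok2, cup9-sok2 or sok2-skn7, where 1.8, 10, 10.6 and 7.34 percent of all genes were called in either direction.

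Most neighbouring groups in the order of their means could not be told apart by their arrays. For GRE1, SIP18, DDR2 and HSP31 the arrays of all 20 neighbouring pairs of groups overlapped. DDR48 had 3 gaps: from the filamentous to the yeast form of the wild type, from the yeast form to sok2-yap6, and from cup9-yap6 to sfl1-skn7. For HSP12 the gaps were between yap6 and sok2-yap6 and between sfl1 and sfl1-yap6. SPI1 had gaps between sok2 and cup9-yap6 and between sfl1 and the yeast-form wild type, and STF2 had 1, between cup9-yap6 and sfl1-yap6. Overlaps of neighbouring groups were not computed over all genes, so these counts are not read as particular to the members.

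Whether a double deletion changed a gene by the sum of both single changes was also computed. Of 104 departures from that sum, on the log2 scale, 4 passed the threshold, all in 2 pairs. Each rests on 4 groups of 3 arrays. In sfl1-yap6, where 14.3 percent of all genes departed in either direction, HSP12 lay 2.35 above the sum (SE 0.70, adjusted p = 0.0176). The single deletions gave log2 changes of 1.60 (sfl1) and -0.88 (yap6), and the double deletion 3.07. DDR48 departed from the sum by -1.03 (SE 0.30, adjusted p = 0.0172), the changes being 3.17, 1.94 and 4.07. The call of HSP12 was lost without sfl1 array 3 (0.0541), sfl1-yap6 array 1 (0.062) or 3 (0.0513) or wild-type array 3 (0.05). That of DDR48 was lost without sfl1 array 2 (0.056), yap6 array 1 (0.0524) or sfl1-yap6 array 1 (0.0654).

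In sfl1-skn7, where 4.14 percent of all genes lay below the sum, SPI1 departed from it by -1.87 (SE 0.47, adjusted p = 0.0172). Its changes were 2.31 in sfl1, 1.18 in skn7 and 1.63 in both. HSP31 departed from the sum by -1.08 (SE 0.36, adjusted p = 0.0436). SPI1 was no longer called without sfl1 array 3 (0.0786) or skn7 array 1 (0.0986). HSP31 was no longer called without sfl1 array 1 (0.0661) or 3 (0.154), skn7 array 1 (0.138) or 2 (0.0672), sfl1-skn7 array 1 (0.0785) or 3 (0.104), or wild-type array 1 (0.0948) or 3 (0.0796). With all arrays kept, HSP31 was also lost after quantile normalization (0.0673) and in the fit of only the groups compared (0.067). In 10 other pairs none of 80 member departures was called, beside 0.502 percent of all genes in limma's fit. At an unadjusted p under 0.05 there were 7 of the 80, 4 of them in sfl1-sok2. The share of all genes at that threshold was not computed, so the 7 are not read as an excess. The 8 departures left are those of the libraries labelled cup9-yap6, where CUP9 read above the wild type, so they do not measure a double deletion and are not read here.

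**Figure D3:**
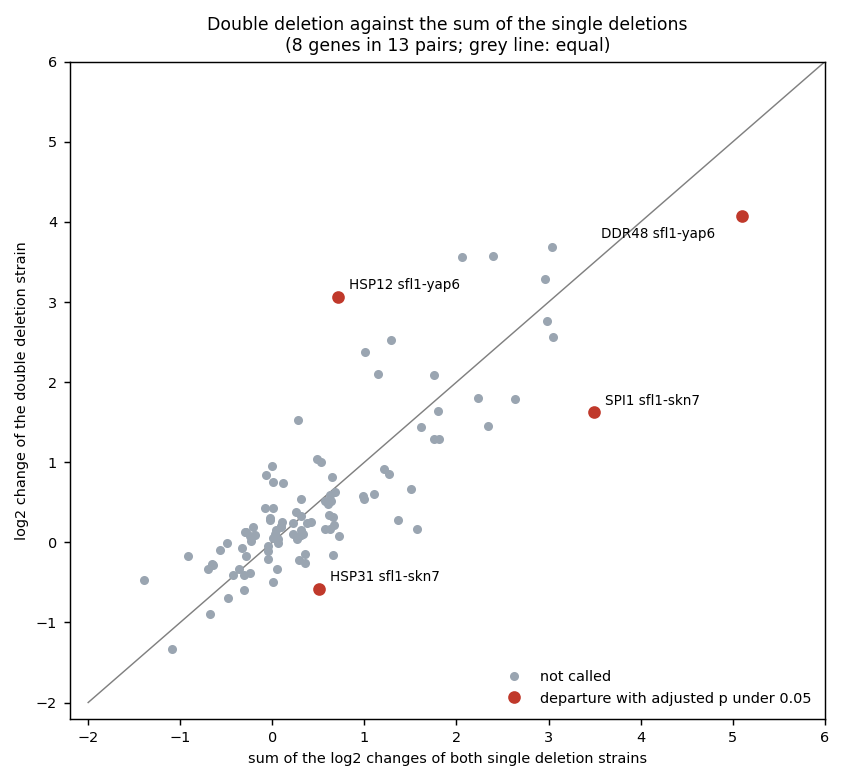
Log2 change of each double deletion strain against the filamentous wild type (vertical axis) and the sum of the log2 changes of both single deletion strains (horizontal axis), for 8 genes in 13 pairs; red points are departures with an adjusted p under 0.05 and the grey line marks equality. HSP12 in sfl1-yap6 lies 2.35 above the line, and the other 3 red points, with departures of -1.03 to -1.87, lie below it. The points of the libraries labelled cup9-yap6 are drawn but do not measure a double deletion.

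In SC medium the dominant-negative ras2a22 mutant had 6 members called higher than the wild type, where 3.76 percent of all genes were. DDR2 read 5546 and 5294 (intensity) in ras2a22 and 133, 74, 83 and 115 in the wild type, a log2 difference of 5.80 (SE 0.64, adjusted p = 0.000243). HSP31 read 1445 and 1539 against 163, 123, 151 and 129, which is 10.7-fold (log2 difference 3.42, SE 0.23, adjusted p = 3.8e-06). These groups were far apart.

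GRE1 read 1134 and 1242 against 7, 33, 2 and 6 (adjusted p = 0.00255), and SIP18 1112 and 1112 against 1, 1, 2 and 21 (adjusted p = 0.00192). The wild-type values of SIP18 lie mostly at or near the floor, and its log2 difference ran from 6.80 to 10.12 over the alternatives run. HSP12 read 3970 and 4798 against 78, 67, 8 and 7 (log2 difference 7.57, adjusted p = 0.0132), where wild-type arrays 1 and 2 were high and 3 and 4 low. SPI1 read 380 and 438 against 101, 30, 21 and 11 (3.83, adjusted p = 0.0128). Against wild-type arrays 1 and 2 alone the adjusted p was 0.0772 for HSP12 and 0.0626 for SPI1. Without ras2a22 array 1 or 2 it was 0.0857 or 0.119 for HSP12 and 0.0791 or 0.122 for SPI1. In the fit of only the groups compared SPI1 was lost as well (0.0961). STF2 at 964 and 946, against 118, 189, 296 and 270, was above every wild-type array, at an adjusted p of 0.0657. DDR48 stayed dim, at 15 and 15 in ras2a22 and 1, 1, 11 and 10 in the wild type.

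Where a Ras GTPase-activating protein was missing, only STF2 was called, and it was lower. It read 13 and 7 in ira1 (log2 difference -4.42, SE 0.67, adjusted p = 0.0174), where 0.234 percent of all genes were called lower. The ira1 call was lost without ira1 array 2 (0.0592) or wild-type array 3 (0.0659), and in the fit of only the groups compared (0.111). In ira2 it read 1 and 8 (-6.20, SE 0.67, adjusted p = 0.000688), where 1.92 percent of all genes were. One of the ira2 values lies at the floor, and the log2 difference ran from -7.70 to -4.70 over the alternatives run. The ira2 call was kept without either ira2 array and lost in the fit of only the groups compared (0.0713). Without being called, DDR2 (174 and 315) and DDR48 (32 and 36) in ira2 lay above every wild-type array (74 to 133 and 1 to 11). HSP31 in ira1 (80 and 97) lay below every wild-type array (123 to 163), also without a call. The share of all genes without overlap was not computed, so these genes are not read as different. STF2 was at 42 and 53 in ira1RA and at 88 and 96 in ras2v19, below the wild-type range in both, and was not called (adjusted p = 0.336 and 0.499). No other member was called in ira1RA or ras2v19, where 0.0719 and 0.144 percent of all genes were called. Between ira1RA and ira1 no member was called by limma, beside 0.126 percent of all genes. STF2 (42 and 53 against 13 and 7, adjusted p = 0.408) and HSP31 (169 and 138 against 80 and 97, adjusted p = 0.416) had unadjusted p-values of 0.0114 and 0.012. Their arrays did not overlap. With 2 arrays in each group this can arise by chance, and the share of all genes without overlap was not computed. Neither gene is therefore read as different.

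Set directly against ras2a22, the dominant-active ras2v19 mutant had 5 members lower, where 3.18 percent of all genes were. HSP31 read 137 and 166 in ras2v19 (log2 difference -3.31, SE 0.27, adjusted p = 2.22e-05) and DDR2 156 and 76 (-5.64, SE 0.73, adjusted p = 0.00117). GRE1 (10 and 6), SIP18 (16 and 1) and STF2 (88 and 96) were also called lower. Every ras2v19 array lay below every ras2a22 array for each of the 5 genes. With 2 arrays in each group this can arise by chance, and the share of all genes without overlap was not computed. The calls of GRE1 and SIP18 were lost without ras2v19 array 2 (0.0551 and 0.0708) or ras2a22 array 2 (0.0547 and 0.0573). SIP18 was also lost in the fit of only the groups compared (0.125). STF2 was lost without any 1 of the 4 arrays (0.0692 to 0.121). HSP12 at 86 and 49 differed from ras2a22 by -6.07 on the log2 scale, with an SE of 1.83 and an adjusted p of 0.0735. That SE pools the spread of all SC medium groups. The log2 SD of HSP12 was 0.61 in ras2v19 and 0.23 in ras2a22 (n = 2 each), but 3.70 in ira2. In the fit of only the groups compared 6 members were called.

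**Figure D4:**
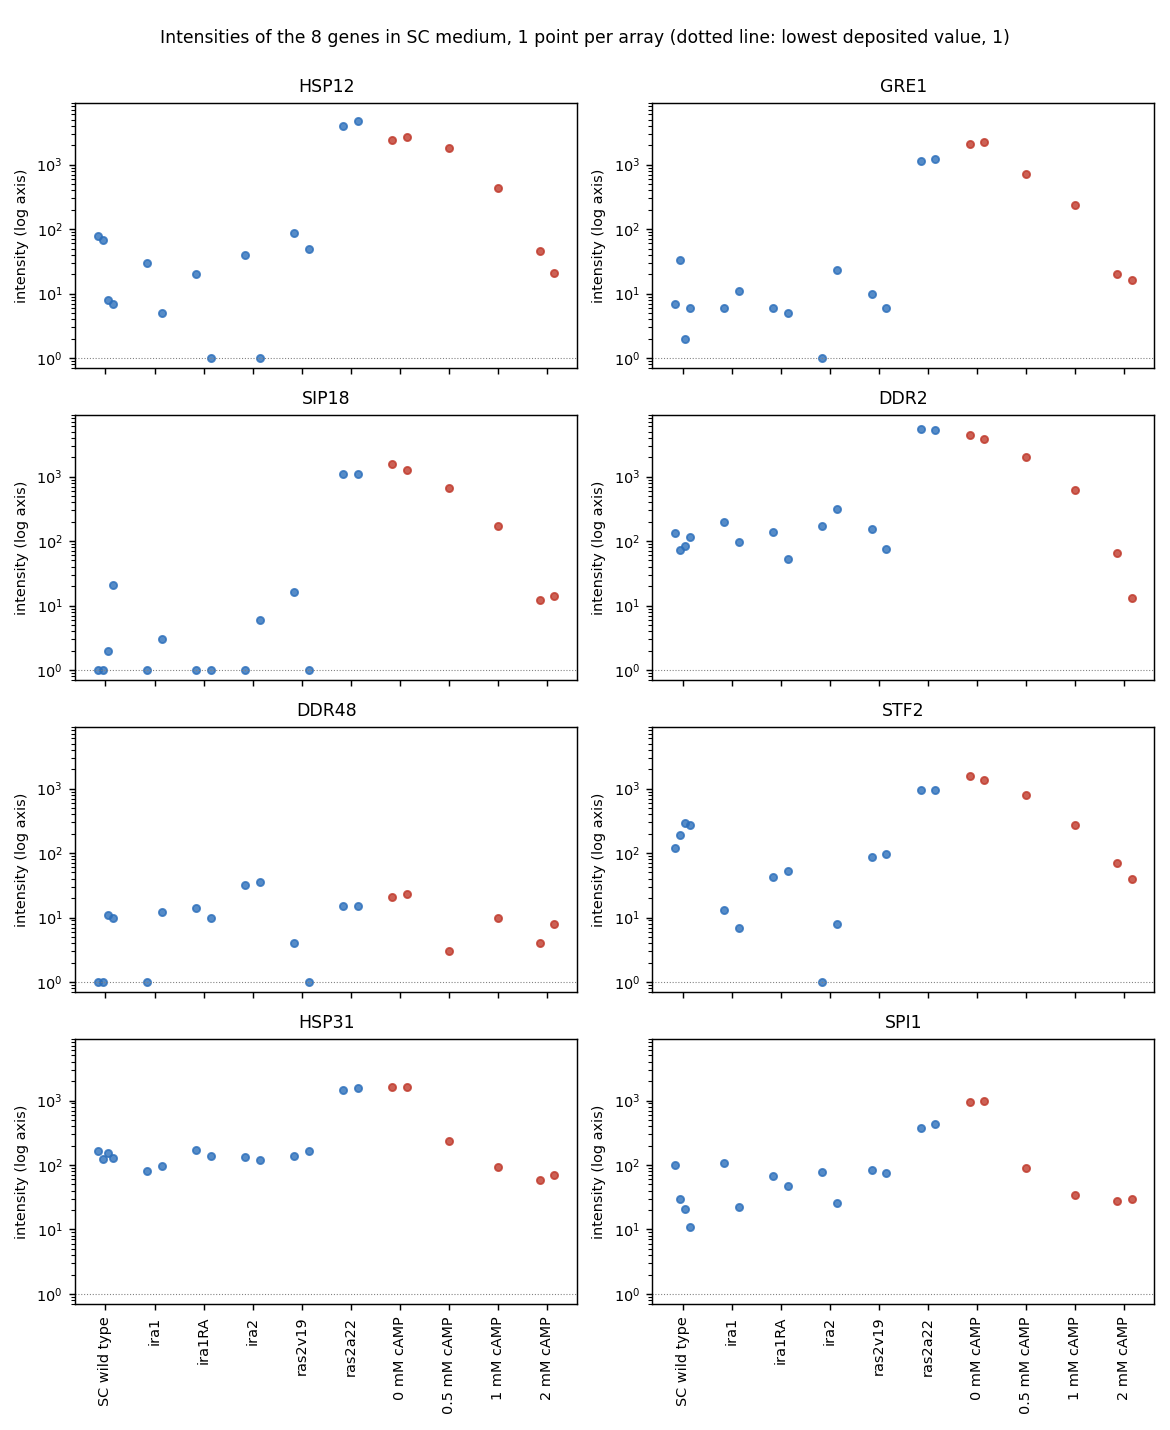
Intensities (log axis) of the 8 genes in the 10 groups of SC medium, with 1 point per array, cAMP series in red, and a dotted line at 1, the lowest value deposited. For 7 of the genes the 0 mM arrays lie far above the 2 mM arrays with 0.5 and 1 mM between or near them, and DDR48 stays at 36 or below on every array.

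With added cAMP, 7 of the 8 members were lower at 2 mM than at 0 mM, where 7.54 percent of all genes were. HSP12 read 2420 and 2716 at 0 mM, 1797 at 0.5 mM, 435 at 1 mM and 46 and 21 at 2 mM. DDR2 read 4473 and 3857, then 1982, 625, and 66 and 13. Both fell step by step with the dose, although 0.5 and 1 mM have 1 array each and the 0 mM strain differs in name and plasmid. The log2 difference of 2 from 0 mM was -6.37 (SE 1.83, adjusted p = 0.029) for HSP12 and -7.15 (SE 0.73, adjusted p = 5.82e-05) for DDR2.

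The hydrophilin pair moved in like steps: GRE1 read 2086 and 2216, 729, 236, and 20 and 16 (adjusted p = 0.00279), and SIP18 1555 and 1282, 666, 174, and 12 and 14 (adjusted p = 0.00714). STF2 read 1544 and 1361, 789, 270, and 69 and 40 (adjusted p = 0.000937). HSP31 and SPI1 had the lowest share of their 0 mM level at 0.5 mM among these 7 genes. HSP31 read 1607 and 1643, 232, 93, and 58 and 70 (adjusted p = 8.32e-07), and SPI1 959 and 997, 90, 34, and 28 and 30 (adjusted p = 0.00205). At 0.5 mM, HSP12 was at 70 percent of its mean at 0 mM, STF2 at 54.3, DDR2 at 47.6, SIP18 at 47 and GRE1 at 33.9 percent. HSP31 was then at 14.3 percent and SPI1 at 9.2 percent. With 1 array at that dose these shares have no replicate error. DDR48 read 21 and 23, 3, 10, and 4 and 8, and was not called (adjusted p = 0.433). The call of HSP12 was lost without any 1 of the 4 arrays at 0 and 2 mM (0.0867 to 0.155), and that of SIP18 without 0 mM array 1 (0.0507).

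Members were compared with each other over group means, as a description, since the groups share arrays, medium and strain background. Over the 21 colony groups HSP12, GRE1, DDR2 and SPI1 had Pearson correlations of 0.811 to 0.900 in their 6 pairs, with HSP12 and SPI1 the closest. DDR48 was nearest to STF2 (0.746) and SPI1 (0.731). The lowest of the 28 pairs was GRE1 with STF2 (0.275). Over the 10 SC medium groups GRE1 and SIP18 reached 0.990, and HSP31 and SPI1 0.961. DDR48 stood apart there, with correlations of -0.08 to 0.42 with the other members, against 0.615 to 0.990 among those 7.

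Among 457 other genes whose colony group means had an SD of at least 0.5, the 3 most alike to each member were ranked by Pearson correlation over the same 21 groups. For DDR48 they were MGA1 (0.959), which encodes a protein similar to heat shock transcription factors, YMR265C (0.917) and RSN1 (0.910). For HSP12 they were GPP2 (0.942), a glycerol-phosphate phosphatase, SPG4 (0.896) and INO1 (0.869), the inositol-phosphate synthase. GPP2 (0.863), INO1 (0.842) and the hexose transporter gene HXT5 (0.798) were nearest to DDR2. SPI1 was nearest to GAD1 (0.895), a glutamate decarboxylase, SPG4 (0.890) and INO1 (0.878). STF2 was nearest to PNC1 (0.937), the nicotinamidase, IAT4 (0.911) and the glycogen synthase GSY1 (0.905). GRE1 had CPP3 (0.875), the cell wall gene PIR3 (0.852) and GPP2 (0.850). Correlations were lower for HSP31, with the trehalose-phosphate phosphatase TPS2 (0.692), PGM2 (0.604) and GPH1 (0.598). They were also lower for SIP18, with YJR115W (0.732), YGP1 (0.707) and VPS73 (0.699). The group means of SIP18 were low and varied little (SD 0.128).

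DDR48 and SIP18 are neighbours on chromosome XIII with PAI3 between them, by the order of genes in the RefSeq annotation R64. Their group means correlated at 0.66 over the 21 colony groups and at 0.243 over the 10 SC medium groups. DDR48 had the widest range of the members in colonies and SIP18, low on every colony array, the narrowest. In SC medium SIP18 reached 1555 while DDR48 stayed at 36 or below. DDR48 had a second colony probe set. It read 4.52 ± 0.04 (SD, n = 3) in the filamentous wild type, 7.93 ± 0.56 in sfl1, 6.94 ± 0.39 in yap6 and 9.66 ± 0.21 in sfl1-yap6, in the same order as the brighter one used throughout.

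Paralogs with similar sequences can share hybridisation signal, most of all HSP32, HSP33 and SNO4 with HSP31, so the probe sets of that family are uncertain. In SC medium all 6 paralogs measured were lower at 2 than at 0 mM cAMP, where 7.54 percent of all genes were. HSP32 went from 189 to 215 at 0 mM to 1 to 3 at 2 mM (adjusted p = 0.00738). HSP33 and SNO4 were also lower (adjusted p = 0.0131 and 0.00156). Of the others, TMA10, the paralog of STF2, fell from 347 on both arrays to 12 and 18 (adjusted p = 0.00179). HOR7, the paralog of DDR2, and SED1, a cell wall protein related to SPI1, fell by 2.36 and 1.59 on the log2 scale (adjusted p = 6.91e-05 and 0.0165). In the colonies 3 of the 6 were measured. SED1 followed SPI1 between the forms (log2 change -2.49, adjusted p = 7.17e-14) and was higher in all 6 strains without SFL1, by 0.93 to 1.32, and, like SPI1, in skn7 and tec1-skn7. HOR7 and TMA10 were called higher in sfl1-sok2 and sfl1-yap6, with TMA10 up by 1.91 and 2.24 on the log2 scale, and TMA10 also in sok2-skn7 (1.56). In the strains without SFL1 8.11 to 23.9 percent of all genes were called higher. The share was 16 percent in skn7, 17.3 in tec1-skn7 and 3.7 in sok2-skn7.

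The wider stress response gives the setting of these values. Of 32 other Msn2 and Msn4 stress genes, 21 were lower and 1 higher in the filamentous form (median log2 change -0.98, against 0.04 over all genes). Over all genes 23.2 percent were lower and 21.6 percent higher. TSL1, a trehalose synthase subunit, fell by 2.12 (adjusted p = 9.45e-06) and the glucokinase GLK1 by 1.84 (adjusted p = 3.51e-05). In sfl1 11 of the 32 were higher, in yap6 13, in sfl1-sok2 25 and in sfl1-yap6 29, and none was lower in these 4 strains. Over all genes 10.3, 12.6, 9.35 and 23.9 percent were higher there. Of the other strains without SFL1, cup9-sfl1 had 10 higher and 2 lower, tec1-sfl1 4 higher, and sfl1-skn7 4 higher and 1 lower. Over all genes 14.6, 10 and 8.11 percent were higher in those strains. The libraries labelled cup9-yap6 had 17 higher and sok2-yap6 5, beside 13.5 and 9.78 percent. The median log2 change of the 32 in sfl1-yap6 was 2.50, against 0.02 over all genes, with HSP42 (4.62, adjusted p = 4.04e-12) and TSL1 (4.39, adjusted p = 2.82e-12) the largest. In SC medium 26 of the 32 were higher in ras2a22, where 3.76 percent of all genes were. RTN2 (8.56) and SOL4 (8.22) were the largest on the log2 scale (adjusted p = 0.00158 and 0.000181). At 2 mM cAMP 28, led by RTN2 and TSL1, were lower than at 0 mM, where 7.54 percent of all genes were.

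Of 8 osmotic response genes measured in colonies, 4 were lower in the filamentous form, where 23.2 percent of all genes were. They were led by GPD1, the glycerol-phosphate dehydrogenase (-3.13, adjusted p = 1.65e-14), and the glycerol transporter gene STL1 (-2.06, adjusted p = 5.34e-12). In sfl1-yap6 5 of them were higher and 1 lower, where 23.9 percent of all genes were higher and 22.7 percent lower. Genes of the stress regulators themselves went both ways. Of 13 measured, 3 were higher and 4 lower in the filamentous form, beside 21.6 percent of all genes higher and 23.2 percent lower. TPK3, a kinase A subunit, was up by 0.94 (adjusted p = 0.000557) and BCY1, its regulatory subunit, changed by -0.78 (adjusted p = 0.00454). In sfl1-yap6 4 of the 13 were higher and 2 lower, beside the same 23.9 and 22.7 percent, so they were not called more often than genes at large. There TPK2 was higher by 2.50 (adjusted p = 4.32e-15) and YAK1 by 1.37 (adjusted p = 8.01e-08), while TPK3 (-1.12, adjusted p = 0.000232) and MSN2 (-0.58, adjusted p = 0.0214) were lower.

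Marker genes of other cell states were counted beside these results. Between the forms of the wild type, 0 of 4 a-specific, 2 of 3 alpha-specific (lower), 0 of 5 haploid-specific and 1 of 5 sporulation genes (lower) were called, where 23.2 percent of all genes were lower. The summed level of the alpha-specific genes, as a log2 value per array, was 7.57 to 7.75 in the yeast form and 7.15 to 7.36 in the filamentous form. Against the filamentous form, all 3 alpha-specific genes were called higher in cup9-sfl1 (summed level 7.77 to 8.28). In skn7, tec1-sfl1, tec1-skn7 and sfl1-skn7 2 of the 3 were. Over all genes 14.6 percent were called higher in cup9-sfl1, 16 in skn7, 10 in tec1-sfl1, 17.3 in tec1-skn7 and 8.11 in sfl1-skn7. Of the 4 a-specific genes, 3 were called higher in tec1-sfl1 (summed level 8.15 to 8.74, against 7.34 to 7.58). In tec1-sok2 2 of the 4 were, where 7.59 percent of all genes were. No more than 2 of the 5 haploid-specific (in sok2-yap6) and 2 of the 5 sporulation genes (in sfl1-sok2 and sfl1-yap6) were called higher in a deletion strain. Over all genes 9.78 percent were called higher in sok2-yap6, 9.35 in sfl1-sok2 and 23.9 in sfl1-yap6. The part of these marker changes in the members' results was not tested. In bulk colonies fewer cells of one kind and less RNA per cell cannot be told apart.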

How the data were processed

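Array values were used as the authors deposited them, with limma 3.58.1 in R 4.3.3. Per the submitters' processing notes, RMA gave the log2 values of the colony table. The SC medium table holds deposited intensity in whole numbers, whose processing is not stated in the labels or files. These intensities were scaled to 1 array median (factors 0.96 to 1.03), floored at the 10th percentile (0.993) and put on log2.

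Probe sets annotated to 1 gene were kept (5668 of 6739 and 5595 of 6178), and the brightest was taken per gene, with names from RefSeq R64. limma fitted all group means of a table at once (49 and 10 residual degrees of freedom, eBayes without trend), tests were two-sided, and adjusted p-values cover all genes of a comparison. Changes were not compared across tables. The members, gene lists and named genes (all members, their paralogs, the altered genes, the 3 most alike genes, and the 2 largest non-overlapping changes of a list) were chosen with earlier results of these data known. Same-numbered arrays correlated over 0.1 in every pair for the forms of the wild type only (0.113 to 0.254). The number of arrays limits the precision. In simulated data, limma recovered 88.5 percent of genes changed by 1 on the log2 scale between the forms, and 65.5 percent of genes changed by 5 between 2 and 0 mM cAMP. Only a small set of genes was changed there, with noise independent between genes. Between the real forms 21.6 percent of genes were called higher and 23.2 percent lower. The shares recovered therefore do not measure the power of the comparisons reported. Promoter and protein sequences were not analysed here.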

Additional observations from a re-analysis of the deposited data

Results flagged for a closer look

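DDR2 on yeast-form wild-type array 1 read 7.90 on the log2 scale and the other 5 arrays read 8.52 to 8.81, a gap that is large for the spread of the group. Of 32 sets of arrays screened, 1 gene in 1 group each, this was the 1 with such a gap. Chance gives such a gap in about 1 in 20 groups. The call of DDR2 between the forms was kept without that array.

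For 4 member genes the departure from the sum of the single changes passed the threshold in limma. In sfl1-yap6 14.3 percent of all genes departed in either direction, and in sfl1-skn7 4.14 percent lay below the sum. The departure was 2.35 for HSP12 and -1.03 for DDR48 in sfl1-yap6 (adjusted p = 0.0176 and 0.0172). It was -1.87 for SPI1 and -1.08 for HSP31 in sfl1-skn7 (adjusted p = 0.0172 and 0.0436). Each of the 4 calls was lost when 1 of several arrays was left out.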

How the results depend on the processing

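Of 62 member calls, 30 were kept under every alternative run and none reversed. Members called between the forms stayed at 5 under all alternatives except without dim genes, where GRE1 was left out and 4 remained. In single deletions the count went from 7 to 12 when only the groups compared were fitted and to 12 with the replicate number as a block. In double deletions it went from 26 to 35 and 37 under the same alternatives. In SC mutants it went from 8 to 5 in the fit of only the groups compared and to 12 with the floor at the 25th percentile. With the replicate block it was 0 there and 0 for ras2v19 against ras2a22, where few residual degrees of freedom are left. The count for ras2v19 against ras2a22 was 5 in the main fit and 6 when only the groups compared were fitted. Blocked calls for the forms were the same. Other pairs of groups share only numbers, so the block is given here alone. With each array left out in turn, counts ran from 5 to 5 between the forms, 5 to 7 in single deletions, 20 to 28 in double deletions, 1 to 5 for departures, 6 to 8 in SC mutants, 2 to 4 for ras2v19 against ras2a22 and 5 to 6 for cAMP. An arm left with 1 array is assumed to vary like the other groups. The alternatives with the tec1 and cup9 libraries left out, and with pairs of SC wild-type arrays, were chosen after seeing the data. The libraries labelled cup9-yap6 could not be left out without losing their group. The share of all genes called under each alternative is not given here, so these counts are not read as changes particular to the members. The causes of these changes were not tested. In SC medium 15 of 160 member values lay at 1.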
